A study of Mus musculus with 9 samples.

Results

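The genes described here were 34 p53 target and DNA damage genes, read in RNA from CD45+ cells of mouse sarcoma grafts. They comprised p53 itself (Trp53), its direct regulators, and genes of growth arrest, apoptosis, antioxidant and metabolic control, DNA repair and mitosis. The members were picked by gene symbol, and all 34 were found among the 45777 genes of the count table. All 34 also passed the filter on low counts that left 16373 genes for testing. The question was whether leukocyte RNA taken 7 days after treatment still showed a p53 response to doxorubicin.

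WEHI-164, a fibrosarcoma line of mouse origin, was grafted under the skin of BALB/c mice, and CD45+ cells were sorted magnetically from the tumors 7 days after drug treatment. The control group received vehicle. The doxorubicin group received 5 mg/kg doxorubicin into the tumor once a week, and the third group received the same doxorubicin together with 25 µg ADU-S100, a STING agonist of the cyclic dinucleotide class, into the tumor 2 times a week. Each group had 3 libraries, described as biological triplicates without a statement of whether each came from 1 mouse, so the p-values measure the spread between these libraries, whatever its source. ADU-S100 alone was not among the groups, so in the combination the agonist could not be told apart from its joint action with doxorubicin. The mice, the graft line and the sorting were shared by all 3 groups, and no earlier time was sampled.

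p53 is a transcription factor that is held low in resting cells because Mdm2 tags it for degradation and Mdm4 blocks its activity. Doxorubicin traps topoisomerase II on DNA and leaves double-strand breaks, and the kinases that sense such breaks release p53 from Mdm2. p53 then binds DNA at paired decamers near its targets and raises genes that stop the cell cycle, repair DNA or start apoptosis, and it raises Mdm2 as its own brake. Lymphocytes are known for p53-dependent apoptosis after DNA damage. Target RNA decays once p53 is low again, so RNA reports p53 activity close to the time of harvest.

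Promoter sequences show where the p53 decamer fell in members on which the results turn. RefSeq promoter windows (GRCm38.p6), from 250 bases before to 50 bases after each transcription start, were matched for 27 of the 34 genes. The p53 decamer, 1 element of a p53 binding site, is a palindromic consensus of 10 bases that reads the same on both strands. It occurred in the windows of 11 of these 27 genes (40.7%), against 2582 of all 27025 genes (9.55%). A match is only a run of letters and was not taken as bound by p53. The bases upstream of the start are printed in the direction of the gene, with each decamer in capitals. The Cdkn1a run is chr17:29090729-29090978 on the plus strand, with decamers that begin 73 and 51 bases before this start, while the window of the other listed Cdkn1a start, chr17:29093519-29093818, held none. A gene was counted when any of its windows held the decamer. The Mdm2 run is chr10:117710759-117711008 on the minus strand, with 1 decamer that begins 186 bases before the start. For Gadd45a (chromosome 6, minus strand), Bax (chromosome 7, minus strand) and Ccng1 (chromosome 11, minus strand), the decamer is shown with 10 bases on each side, and it begins 40, 201 and 185 bases before the start.
Cdkn1a: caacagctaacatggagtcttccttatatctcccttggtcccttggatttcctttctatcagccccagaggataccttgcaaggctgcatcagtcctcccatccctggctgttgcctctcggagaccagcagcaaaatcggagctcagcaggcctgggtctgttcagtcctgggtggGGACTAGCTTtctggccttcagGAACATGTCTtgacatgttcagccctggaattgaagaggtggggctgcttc
Mdm2: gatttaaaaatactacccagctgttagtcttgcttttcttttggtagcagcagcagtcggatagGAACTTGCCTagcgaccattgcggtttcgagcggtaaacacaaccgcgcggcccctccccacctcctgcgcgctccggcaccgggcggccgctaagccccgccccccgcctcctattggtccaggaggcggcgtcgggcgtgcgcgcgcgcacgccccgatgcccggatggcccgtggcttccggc
Gadd45a: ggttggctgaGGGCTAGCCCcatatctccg
Bax: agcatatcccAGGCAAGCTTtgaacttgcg
Ccng1: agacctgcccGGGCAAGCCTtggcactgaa

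Decamers also occurred in the windows of Trp53, Ckap2, Ei24, Aen, Sesn1 and Polk, the last 2 at an alternate start. The windows of Btg2 and Pidd1 held none of these letters.

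The libraries were deep and their cell makeup differed. Total counts ran from 50110494 to 69456603 per library, with a median of 54587679. All 10 leukocyte markers, Ptprc among them, were detected in each library, and their summed level was 5378 to 8056 CPM (counts per 1000000 of the scaled library) in control, 6246 to 9102 after doxorubicin and 3975 to 9819 in the combination. The 26 markers of fibroblasts and sarcoma cells summed to 263 to 2506 CPM in control, 269 to 1490 after doxorubicin and 287 to 4122 in the combination, and none was at 0 in any library. They were highest in combination replicate 3, followed by control replicate 2 and doxorubicin replicates 1 and 3, and combination replicate 3 also had the lowest leukocyte sum. Other marker lists also moved with the groups. After doxorubicin all 10 T cell markers had a positive log2 fold change (median 1.68), 4 of them at an unadjusted p under 0.05 (edgeR), as did all 6 neutrophil markers (median 1.25, none at that threshold) and all 6 endothelial markers (median 0.65, 3 at it). T cell markers summed to 8.61 to 24.1 CPM in control, 10.2 to 108 CPM after doxorubicin and 9.72 to 54.1 CPM in the combination. In the combination 9 of 10 monocyte and macrophage markers had a negative log2 fold change (median -0.40), none at that threshold, and their sum was 5463 to 10950.0 CPM, beside 7250.0 to 11880.0 CPM in control. The part of these shifts in the results on members was not tested. In such sorted bulk RNA, fewer cells of a type and less RNA per cell cannot be told apart.

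No member of the p53 program was called in any comparison after adjustment over all genes. After doxorubicin alone the means of Cdkn1a, Mdm2, Pmaip1 and Ccng1 lay inside the range of the control libraries. Those of Bax, Bbc3, Cdkn2a, Gadd45a, Perp and Triap1 lay above it, as in 13.4% of all genes. Those of Btg2, Ercc5, Rrm2b and Sesn1 lay below it, as in 13.4%, and none of these members passed an unadjusted p under 0.05. In the combination, Cdkn1a, Btg2 and Gadd45a had higher means and Pidd1 a lower mean at an unadjusted p under 0.05, and the excess of Cdkn1a and Btg2 lay in 2 of the 3 libraries. The edgeR quasi-likelihood test called 0 of the 34 members at an adjusted p under 0.05 in each comparison, as it called 0% of all genes tested. The lowest adjusted p of a member was 1.00 for doxorubicin against control and 0.948 for the combination against control. DESeq2 also called 0 members, with a lowest adjusted p of 0.53, in a table where it called 0.0122% of all genes for doxorubicin and 0.165% for the combination against control, 0.055% for the combination against doxorubicin and 0.0183% for both treated groups against control.

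**Figure D1:**
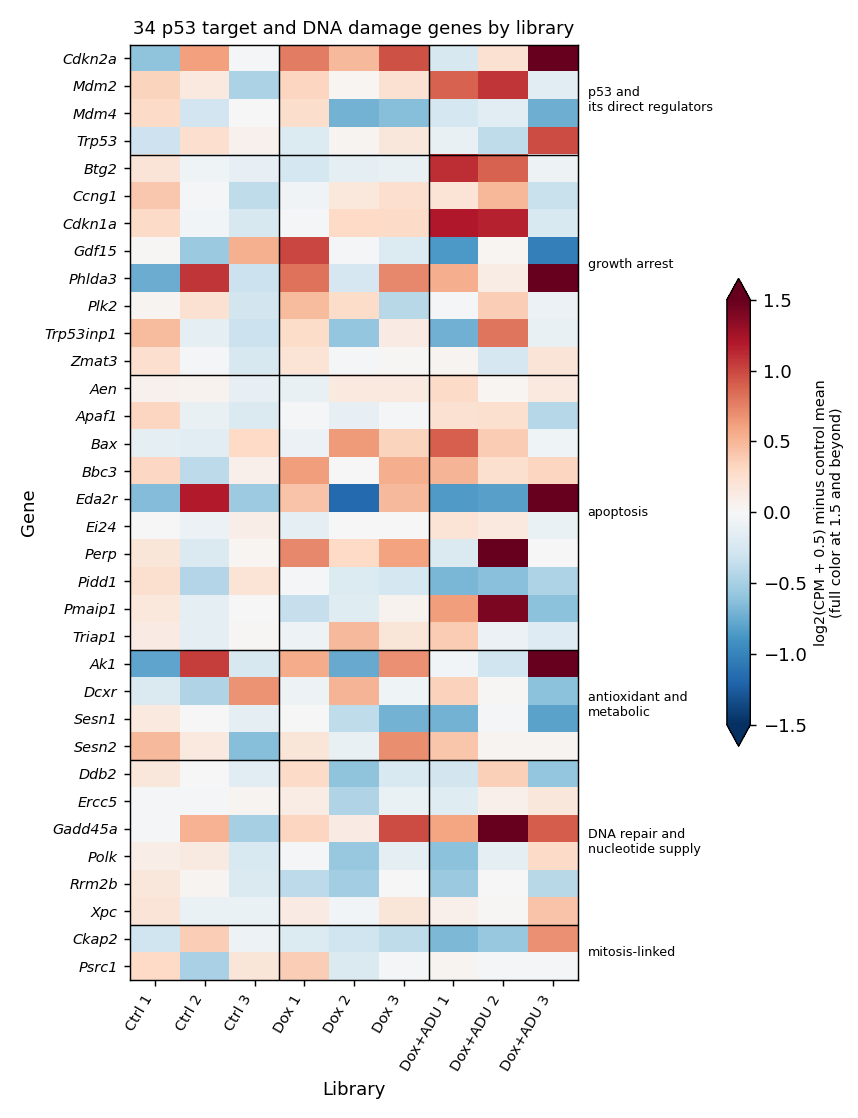
Each cell gives 1 gene in 1 library as log2(CPM + 0.5) minus the mean of the 3 control libraries, with genes in rows by role and libraries in columns. Cdkn1a and Btg2 are high in combination replicates 1 and 2 and not in replicate 3, while Phlda3, Eda2r and Ak1 are high in combination replicate 3 and control replicate 2.

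At an unadjusted p under 0.05, 0 members passed for doxorubicin against control, where 0.708% of all genes tested passed. For the combination against control, 3 members were higher (Btg2, Cdkn1a and Gadd45a), where 2.83% of all genes were higher, and 1 was lower (Pidd1), where 1.61% were lower. DESeq2 at the same threshold gave 0 and 4 members for these comparisons, where 167 and 883 of all 16373 genes passed. Against doxorubicin alone, 1 member was higher in the combination (Btg2), where 1.97% of all genes were higher, and none was lower, where 0.788% were. For both doxorubicin groups against control, 1 member was higher (Gadd45a), where 1.12% of all genes were, and none was lower, where 0.861% were. With a fold change above 2 added to the unadjusted p, Gadd45a was the only member left for the combination against control, where 1.46% of all genes were left as higher and 0.708% as lower. These comparisons share libraries, so their counts are not independent of each other.

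The group means of most members lay inside the range of the 3 control libraries, as did those of most genes tested. For doxorubicin this held for 24 of 34 members, with 6 above and 4 below, beside 73.2% of all genes inside, 13.4% above and 13.4% below. For the combination it held for 18 of 34, with 12 above and 4 below, beside 59.1%, 24.5% and 16.4% of all genes. The 95% interval of the fold change ended below a 2-fold rise in 26 of 34 members for doxorubicin against control, beside 64.5% of all genes, and in 21 of 34 for the combination, beside 59.9%. A 2-fold rise of Cdkn1a, Mdm2, Bax or Pmaip1 therefore lay outside the interval for doxorubicin alone, while a smaller one could not be told from no change.

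**Figure D2:**
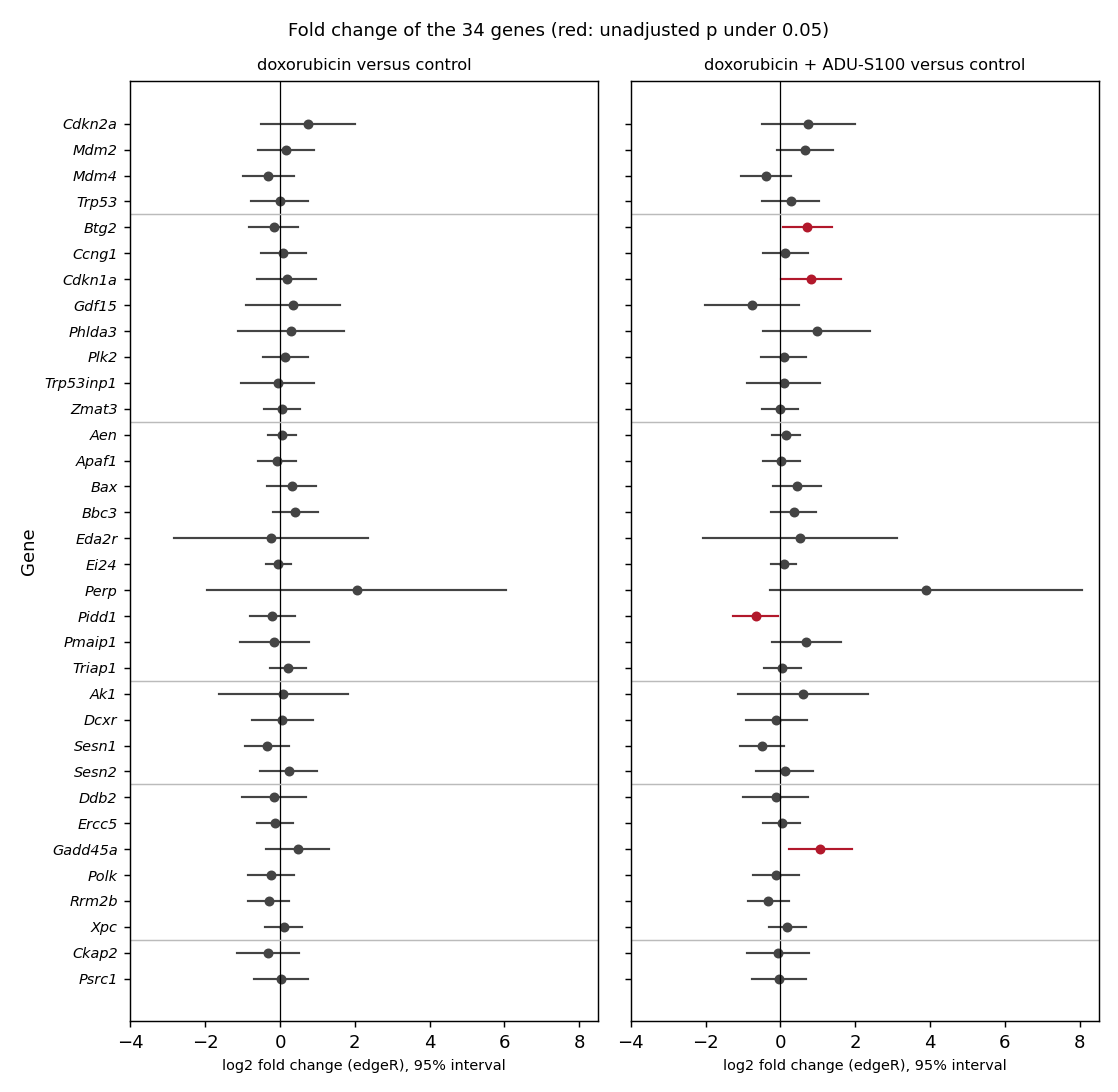
Points give the edgeR log2 fold change of each of the 34 genes against control and bars its 95% interval, for doxorubicin (left) and doxorubicin + ADU-S100 (right), with red for an unadjusted p under 0.05. On the left no interval excludes 0, and on the right those of Btg2, Cdkn1a, Gadd45a and Pidd1 do.

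Trp53 and its direct regulators gave no shared direction. Trp53 (chromosome 11) was at 67.8, 101 and 88.3 CPM in control, 73.5, 87.2 and 94.7 CPM after doxorubicin and 78.1, 64.7 and 167 CPM in the combination. It lay between 64.7 and 101 CPM in 8 libraries and was highest in combination replicate 3, with a log2 fold change of -0.01 (SE 0.34) for doxorubicin against control. Transcript level is not where p53 is mainly controlled, since the protein is regulated through its stability.

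Mdm2, the ubiquitin ligase that p53 induces as its own brake, was at 106, 94.0 and 60.5 CPM in control and at 106, 86.1 and 99.5 CPM after doxorubicin. It was at 157, 178 and 74.9 CPM in the combination. Replicates 1 and 2 of the combination lay above every other library, and replicate 3 lay among the control values. Against control this gave a log2 fold change of 0.16 (SE 0.33, 95% interval -0.58 to 0.90) for doxorubicin and 0.65 (SE 0.33, unadjusted p = 0.0771, edgeR) for the combination. Without combination replicate 3, the latter was 0.95 (SE 0.25, unadjusted p = 0.00403, adjusted p = 0.239).

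Mdm4, the relative of Mdm2 that masks the p53 activation domain, was at 70.9, 47.3 and 57.6 CPM in control, 69.8, 35.1 and 36.9 CPM after doxorubicin and 48.1, 51.4 and 34.7 CPM in the combination. Doxorubicin replicates 2 and 3 lay below all control libraries and replicate 1 lay at the top of them. For doxorubicin the log2 fold change was -0.31 (SE 0.30), and without doxorubicin replicate 1 it was -0.70 (unadjusted p = 0.0208, edgeR).

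Cdkn2a encodes p16, a cyclin-dependent kinase inhibitor, and p19Arf, an inhibitor of Mdm2, which gene counts do not separate. It was at 1.84, 4.93 and 3.01 CPM in control, 5.56, 4.46 and 6.38 CPM after doxorubicin and 2.49, 3.65 and 10.3 CPM in the combination. The groups overlapped, and the log2 fold change was 0.74 (SE 0.55) for doxorubicin and 0.75 (SE 0.55) for the combination. Without combination replicate 3 the latter was -0.09.

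Among the 8 genes of growth arrest, Cdkn1a and Btg2 were the most abundant, and their pattern over the libraries was alike. Per kilobase of exon, the median level over the 9 libraries was 127 CPM for Cdkn1a and 114 CPM for Btg2, beside 75.6 for Bax, 48.3 for Plk2, 34.1 for Ccng1 and 19.6 for Mdm2. For doxorubicin against control, 6 of the 8 had a positive log2 fold change with a median of 0.12, and for the combination 6 of 8 with a median of 0.11. The medians over all genes tested were -0.01 and 0.06.

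Cdkn1a (chromosome 17) encodes p21, the inhibitor of cyclin-dependent kinases through which p53 stops the cell cycle. It was at 449.8, 359 and 314 CPM in control and at 363, 456 and 450.3 CPM after doxorubicin. In the combination it was at 850.5, 822 and 316 CPM. The doxorubicin libraries overlapped with control, and 2 combination libraries stood above all others while the third was level with the lowest control. The group means were 374 ± 69.4 CPM in control, 423 ± 52.3 CPM after doxorubicin and 663 ± 301 CPM in the combination (SD, n = 3 libraries each). Against control, Cdkn1a had a log2 fold change of 0.18 (SE 0.35, 95% interval -0.62 to 0.97) for doxorubicin and 0.83 (SE 0.35, 95% interval 0.03 to 1.63, unadjusted p = 0.0444, edgeR) for the combination. The unadjusted p for the combination passed 0.05 under the omission of each library in turn only without control replicate 1 or combination replicate 3. Without combination replicate 3 the log2 fold change was 1.16 (SE 0.22, unadjusted p = 0.000606, adjusted p = 0.141), and without control replicate 3 it was 0.72 (unadjusted p = 0.129).

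Btg2, an antiproliferative protein that acts with the mRNA deadenylation machinery, was at 376, 314 and 303 CPM in control and 275, 301 and 306 CPM after doxorubicin. It was at 709, 610.2 and 312 CPM in the combination. As with Cdkn1a, replicates 1 and 2 of the combination stood above the rest. These were also the libraries with the highest leukocyte marker sums, 9819 and 9403 CPM, and the highest Ly6c2, a marker of inflammatory monocytes. Ly6c2 was at 542, 255 and 79.7 CPM in the combination and at 74.1, 39.4 and 25.7 CPM in control, with a log2 fold change of 2.66 (SE 0.74, adjusted p = 0.948 with edgeR and 0.0433 with DESeq2). Ly6c2 was the only 1 of the 10 monocyte and macrophage markers with a positive log2 fold change in the combination, where the median was -0.40. The part of cell makeup in the levels of Cdkn1a and Btg2 was not tested. For Btg2, every combination library was above every doxorubicin library, by little for replicate 3. Its log2 fold change against doxorubicin was 0.89 (SE 0.29, unadjusted p = 0.0129, adjusted p = 0.999, edgeR). Groups that did not overlap in this direction made up 3.53% of all genes tested. In the same comparison Fosb, an immediate early gene that cell dissociation also raises, was at 824, 829.9 and 1037 CPM against 666, 354 and 289 CPM. Its log2 fold change was 1.04 (unadjusted p = 0.0177, edgeR), and its part was not tested. Of 12 immediate early and dissociation genes, 6 were positive in this comparison, with a median of 0.05, and only Fosb passed the unadjusted threshold. Against control the log2 fold change of Btg2 was 0.72 (SE 0.29, unadjusted p = 0.0342, edgeR). Without combination replicate 1 it was 0.43 (unadjusted p = 0.176, edgeR).

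**Figure D3:**
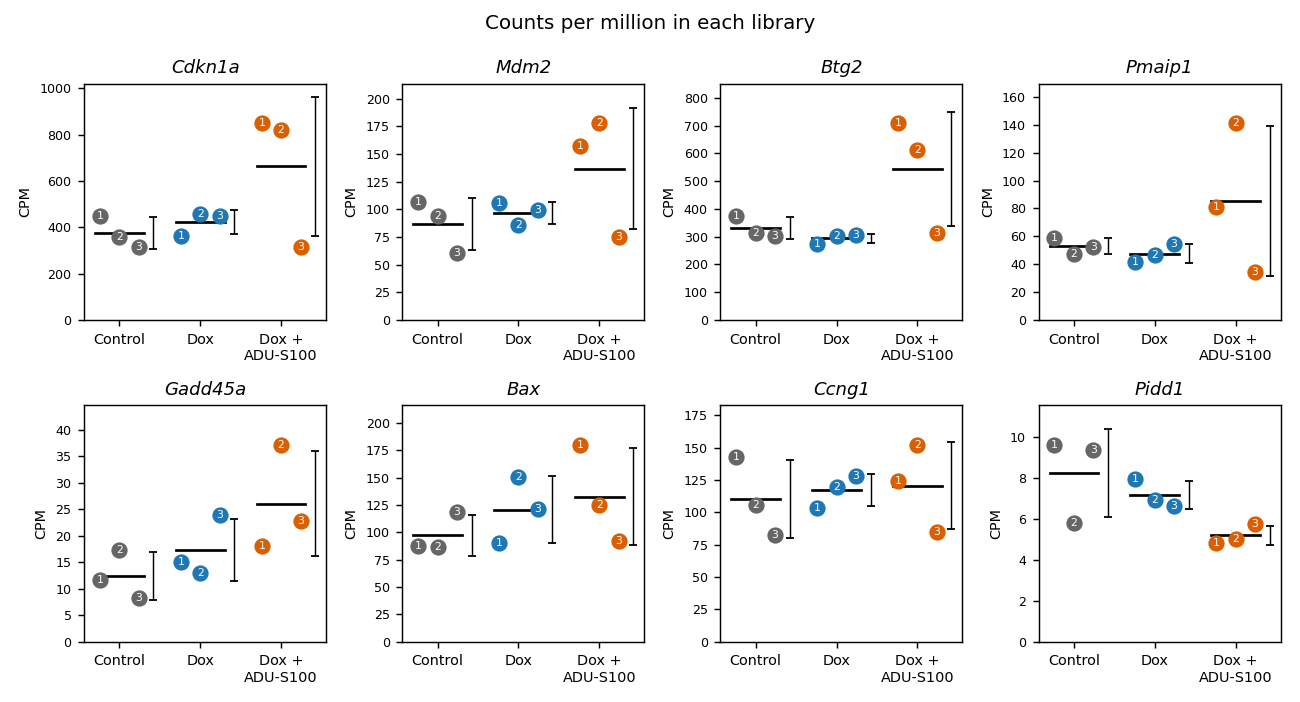
CPM of 8 genes in each library, with the replicate number in each point, a line at the group mean and a bar of 1 SD (n = 3). In the combination, Cdkn1a, Mdm2, Btg2 and Pmaip1 are high in replicates 1 and 2 and at or below the control mean in replicate 3, while Gadd45a lies above and Pidd1 below all control libraries in all 3.

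Ccng1, which encodes cyclin G1, a p53 target that recruits a phosphatase to Mdm2, was at 143, 105 and 82.7 CPM in control, 104, 120 and 128 CPM after doxorubicin and 124, 152 and 85.3 CPM in the combination. Its groups overlapped throughout, with log2 fold changes of 0.09 (SE 0.26) and 0.13 (SE 0.26) against control. Zmat3, a zinc finger RNA-binding protein, stayed within a factor of 1.43 over all libraries. It was at 18.6, 15.3 and 13.0 CPM in control, 17.9, 15.2 and 15.6 CPM after doxorubicin and 15.9, 12.9 and 17.7 CPM in the combination. Neither gene had a library that stood apart.

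Gdf15, a secreted stress cytokine, was at 2.46, 1.49 and 3.72 CPM in control, 5.35, 2.37 and 2.03 CPM after doxorubicin and 1.11, 2.48 and 0.929 CPM in the combination. Its highest value was in doxorubicin replicate 1 and its lowest in combination replicate 3. Its log2 fold change was 0.35 (SE 0.55) for doxorubicin and -0.77 (SE 0.56) for the combination, and neither passed the unadjusted threshold.

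Phlda3, a p53 target that competes with Akt for membrane lipids, was at 4.80, 18.2 and 6.62 CPM in control, 15.1, 6.98 and 14.2 CPM after doxorubicin and 12.5, 9.15 and 36.2 CPM in the combination. The libraries high in Phlda3 were those high in fibroblast markers. The log2 fold change against control was 0.29 (SE 0.63) for doxorubicin and 0.96 (SE 0.64, unadjusted p = 0.164) for the combination. With the mean of the 26 fibroblast markers as a covariate, the latter was 0.92 (unadjusted p = 0.0014, edgeR). In that fit no member had an adjusted p under 0.47 for the combination against control. Without the 4 libraries highest in fibroblast markers, the log2 fold change of Phlda3 for the combination was 0.91. Plk2, a polo-like kinase, was at 213 ± 36.3, 235 ± 70.4 and 226 ± 40.5 CPM in the 3 groups (SD, n = 3), and Trp53inp1, a stress-induced nuclear protein, at 11.2 ± 3.60, 10.7 ± 3.23 and 11.9 ± 6.67 CPM.

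The 10 apoptosis genes were split after doxorubicin, with 5 positive log2 fold changes and a median of 0.01. In the combination 9 of 10 were positive with a median of 0.25, where 56.9% of all genes tested were positive. None of the 9 passed even the unadjusted threshold, and the gene that did, Pidd1, was the negative one.

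Bax, which opens the mitochondrial outer membrane, was at 87.2, 86.3 and 119 CPM in control, 90.4, 151 and 122 CPM after doxorubicin and 180.2, 125 and 92.5 CPM in the combination. At least 1 library of each treated group lay within the control range. Bax had a log2 fold change of 0.31 (SE 0.29, 95% interval -0.34 to 0.96) for doxorubicin and 0.44 (SE 0.29, 95% interval -0.20 to 1.09) for the combination, and the latter was 0.65 (SE 0.27, unadjusted p = 0.0415, adjusted p = 0.419, edgeR) without combination replicate 3.

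Bbc3 encodes PUMA, a BH3-only protein that frees Bax from its inhibitors. It was at 11.4, 6.85 and 9.63 CPM in control, 14.3, 9.16 and 13.5 CPM after doxorubicin and 13.2, 10.9 and 11.5 CPM in the combination. In each treated group 2 libraries were above every control library, and Bbc3 had the lowest unadjusted p of the members for doxorubicin, at 0.161 with a log2 fold change of 0.41 (SE 0.27).

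Pmaip1 encodes Noxa, a BH3-only protein that binds Mcl-1. It was at 58.8, 47.3 and 52.4 CPM in control, 41.5, 46.3 and 54.8 CPM after doxorubicin and 81.3, 141 and 34.1 CPM in the combination. Combination replicates 1 and 2 were the highest of all libraries, and replicate 3 was the lowest of all. The log2 fold change was -0.15 (SE 0.41) for doxorubicin and 0.69 (SE 0.41, unadjusted p = 0.126) for the combination, and the latter was 1.07 (SE 0.25, unadjusted p = 0.00208, adjusted p = 0.202, edgeR) without combination replicate 3.

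Pidd1, a death-domain protein that activates caspase-2, went the other way. It was at 9.60, 5.78 and 9.33 CPM in control, 7.95, 6.93 and 6.62 CPM after doxorubicin and 4.82, 5.01 and 5.72 CPM in the combination. All combination libraries lay below all control and all doxorubicin libraries, narrowly so for control replicate 2. Groups that did not overlap in this direction made up 3.95% of all genes tested against control and 2.63% against doxorubicin. The log2 fold change against control was -0.67 (SE 0.27, 95% interval -1.27 to -0.07, unadjusted p = 0.0333, adjusted p = 0.948, edgeR), and it was -0.54 (unadjusted p = 0.114) without control replicate 1.

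Eda2r, a receptor of the tumor necrosis factor family, was at 0.603, 3.45 and 0.684 CPM in control, 1.82, 0.272 and 1.92 CPM after doxorubicin and 0.462, 0.483 and 5.87 CPM in the combination. It spread 21.6-fold over the libraries, the widest range of any member detected in every library, and the 4 high values were again in the libraries rich in fibroblast markers. The log2 fold change against control was 0.53 (SE 1.15) in the combination and -1.74 without combination replicate 3.

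Perp, a desmosomal membrane protein of stratified epithelia and a p53 target in apoptosis, was nearly absent. It had 9, 0 and 5 counts in control, 25, 11 and 23 counts after doxorubicin and 0, 177 and 6 counts in the combination. The doxorubicin libraries were all above control, as in 1.77% of all genes tested, but Perp passed the count filter only through that group, so nothing is read from the separation. The log2 fold change was 2.05, and its 95% interval ran from -1.95 to 6.05. The 177 counts were in the library with the highest Krt5 and Krt14, keratins of basal keratinocytes, at 3.06 and 2.35 CPM, markers chosen after the values were seen. Doxorubicin replicate 1, with 25 Perp counts, had 0.746 CPM of Krt5 and 0.691 CPM of Krt14, but doxorubicin replicate 3, with 23 counts, had both at 0, and their part in the result was not tested.

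The other apoptosis members differed little between groups. Aen, an exonuclease that p53 induces, and Ei24, a membrane protein of the endoplasmic reticulum, spread by no more than 1.34-fold and 1.28-fold over the 9 libraries. Apaf1, the core of the apoptosome, was at 66.6 ± 14.0, 62.9 ± 2.20 and 67.8 ± 16.5 CPM in control, doxorubicin and combination. Triap1, a small mitochondrial lipid-transfer protein that restrains apoptosis, was at 26.2 ± 2.49, 30.4 ± 6.04 and 27.2 ± 6.10 CPM (SD, n = 3).

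The 4 antioxidant and metabolic members had log2 fold changes from -0.34 to 0.23 after doxorubicin and from -0.49 to 0.60 in the combination. Sesn2, a leucine sensor that restrains mTORC1, was at 15.4, 12.0 and 6.78 CPM in control, 12.4, 9.99 and 17.8 CPM after doxorubicin and 14.6, 11.1 and 11.1 CPM in the combination, with all groups overlapping. Its relative Sesn1 was at 37.7 ± 3.90, 29.8 ± 7.48 and 26.9 ± 8.52 CPM (SD, n = 3), a log2 fold change of -0.49 (SE 0.26, unadjusted p = 0.0941) in the combination. Ak1, adenylate kinase 1, was at 1.26, 5.73 and 2.07 CPM in control, 3.97, 1.30 and 4.39 CPM after doxorubicin and 2.46, 1.97 and 9.28 CPM in the combination. It was high in the same 4 libraries as Eda2r and Phlda3. Dcxr, a carbonyl reductase, was highest in control replicate 3 at 31.4 CPM and lowest in combination replicate 3 at 12.6 CPM.

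Of the 6 members of DNA repair and nucleotide supply, Gadd45a stood apart from the rest. Gadd45a, a small stress protein that binds p21 and PCNA, was at 11.7, 17.3 and 8.30 CPM in control, 15.0, 13.0 and 23.9 CPM after doxorubicin and 18.2, 37.2 and 22.9 CPM in the combination. Every combination library was above every control library, as in 4.39% of all genes tested, while doxorubicin replicate 3 alone of its group was above them. Gadd45a had a log2 fold change of 1.07 (SE 0.37, 95% interval 0.22 to 1.91, unadjusted p = 0.0189, adjusted p = 0.948, edgeR) in the combination and 0.48 (SE 0.37, 95% interval -0.36 to 1.31) after doxorubicin. For both treated groups against control it was 0.77 (SE 0.33, unadjusted p = 0.0449, adjusted p = 0.999). Without combination replicate 2 the combination value was 0.72 (unadjusted p = 0.0868), and without combination replicate 3 it was 1.15 (SE 0.41, unadjusted p = 0.0205). The annotation places an antisense transcript over 19.1% of the Gadd45a exons, and the strand setting of the counting is not given in the sources used here.

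The 5 remaining repair members did not share that direction. Rrm2b, a ribonucleotide reductase subunit that supplies nucleotides to resting cells, was at 14.1 ± 1.95 CPM in control, 11.4 ± 2.35 CPM after doxorubicin and 11.3 ± 2.42 CPM in the combination (SD, n = 3). Polk, a translesion DNA polymerase, had log2 fold changes of -0.24 (SE 0.27) and -0.12 (SE 0.27). Xpc and Ddb2, which recognize damage in nucleotide excision repair, had 0.09 (SE 0.22) and -0.16 (SE 0.38) after doxorubicin, and Ercc5, an endonuclease of the same pathway, had -0.13 (SE 0.22). In the combination these 3 were at 0.19, -0.13 and 0.03. Exons of Ddb2 overlap those of Acp2 on the opposite strand by 23.8%, which limits its count in the same way.

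The mitosis-linked members were Ckap2 and Psrc1, which bind spindle microtubules. Ckap2 was at 16.9, 27.3 and 19.9 CPM in control, 18.1, 17.0 and 16.0 CPM after doxorubicin and 13.0, 14.0 and 33.9 CPM in the combination. Its highest value was in combination replicate 3, without which its log2 fold change in the combination was -0.67 (SE 0.23, unadjusted p = 0.0203, adjusted p = 0.367, edgeR). Psrc1 was level in the 3 groups, at 4.46 ± 1.32, 4.55 ± 1.08 and 4.32 ± 0.119 CPM (SD, n = 3).

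How many members passed the unadjusted threshold against control moved with single combination libraries. Without combination replicate 3, 7 members were higher (Cdkn1a, Btg2, Pmaip1, Mdm2, Gadd45a, Perp and Bax), where 6.49% of all genes were higher, although Perp rested on replicate 2 alone, with 0 counts in replicate 1, and 2 were lower (Ckap2 and Pidd1), where 4.99% were lower. The lowest adjusted p of a member was then 0.141. Against doxorubicin alone, Btg2, Pmaip1, Cdkn1a and Mdm2 were higher, where 4.84% of all genes were, and none was lower, where 3.73% were. Without all 4 libraries highest in fibroblast markers, which left 2 libraries each in control and combination, 6 members were higher against control (Cdkn1a, Gadd45a, Pmaip1, Mdm2, Phlda3 and Btg2), where 4.97% of all genes were, and Pidd1 was lower, where 3.11% were. Without combination replicate 2, by contrast, no member was higher against control and 1 was lower, where 2.06% and 3.98% of all genes were. For doxorubicin against control, 0 members passed without combination replicate 3, where 0.658% of all genes were higher and 0.383% lower.

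Cdkn2a, Eda2r, Phlda3 and Ak1 were highest in the libraries with the most fibroblast marker RNA. In each, all 4 libraries highest in these markers lay above the other 5. This held for 4 of the 34 members, near the 9.69% of all genes tested, so it is not read as particular to them. No member lay below, as in 2.33% of all genes. Phlda3 was at 14.2 to 36.2 CPM in these 4 libraries and at 4.80 to 12.5 CPM in the other 5. Eda2r was at 1.82 to 5.87 CPM against 0.272 to 0.684 CPM, Ak1 at 3.97 to 9.28 CPM against 1.26 to 2.46 CPM, and Cdkn2a at 4.93 to 10.3 CPM against 1.84 to 4.46 CPM. Each of the 3 groups had at least 1 such library, so these genes spread within groups, and the part of the graft and stromal cells in their levels was not tested.

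**Figure D4:**
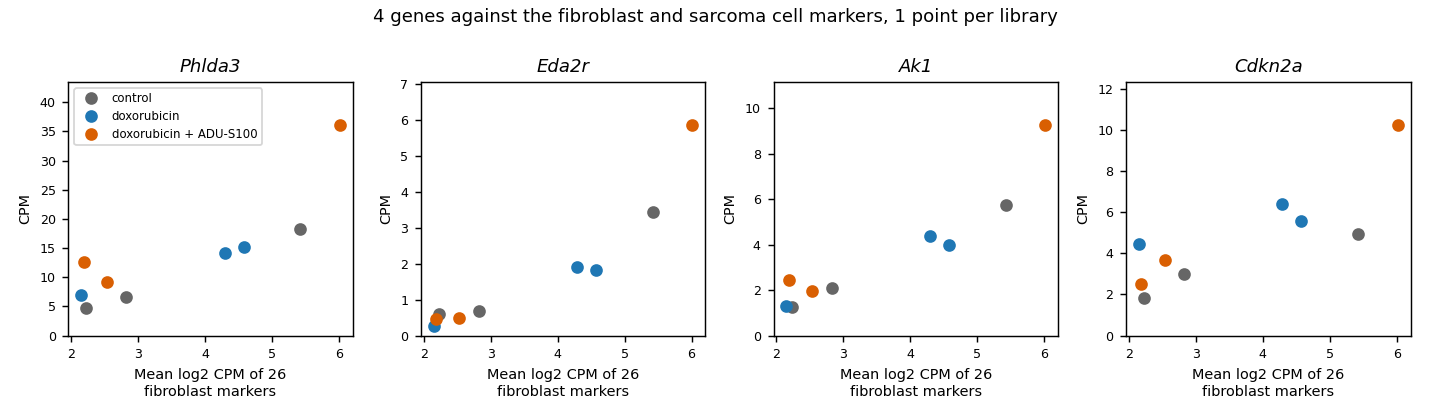
CPM of Phlda3, Eda2r, Ak1 and Cdkn2a against the mean log2 CPM of 26 fibroblast and sarcoma cell markers, with 1 point per library colored by group. In each panel the 4 libraries farthest to the right, which come from all 3 groups, are the 4 highest.

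Other genes of the pathway were taken from lists of known function. Of 27 further p53 targets tested, 17 had a positive log2 fold change after doxorubicin with a median of 0.06, and 20 in the combination with a median of 0.34. Of all genes tested, 48.9% and 56.9% were positive. The mean log2 CPM of these targets was 3.33 to 3.72 in control, 3.46 to 3.76 after doxorubicin and 3.42 to 3.89 in the combination. The groups thus overlapped, and combination replicate 3 was highest. Of the 27, 2 had an unadjusted p under 0.05 after doxorubicin, both higher, where 0.513% of all genes were. Trp53i11 was at 7.96, 5.81 and 9.17 CPM in control and 13.4, 8.83 and 24.5 CPM after doxorubicin, with a log2 fold change of 1.03 (SE 0.40, unadjusted p = 0.0289, edgeR). Cpt1c, a carnitine palmitoyltransferase family member expressed mainly in brain, had 1.05 (SE 0.46, unadjusted p = 0.0495) at no more than 1.40 CPM. In the combination, Fas, the death receptor, and Sfn, the 14-3-3 sigma protein that holds cells before mitosis, were higher at this threshold. The share of all genes higher at it was 2.83%. Fas was at 17.6, 12.1 and 10.5 CPM in control and 24.1, 39.5 and 12.8 CPM in the combination, so that replicates 1 and 2 were again the high ones, with a log2 fold change of 0.93 (SE 0.39, unadjusted p = 0.0392). Sfn had 1.63 (SE 0.69, unadjusted p = 0.0426) at no more than 2.94 CPM.

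Of 14 cofactors and regulators of p53 tested, 4 were positive after doxorubicin and 10 in the combination, beside 48.9% and 56.9% of all genes. None passed the unadjusted threshold against control. Trp53bp2, which encodes the p53 partner ASPP2, was higher in the combination than after doxorubicin alone. It was at 24.1, 24.4 and 17.0 CPM in the combination and 14.5, 13.4 and 12.3 CPM after doxorubicin, with no overlap and a log2 fold change of 0.70 (SE 0.20, unadjusted p = 0.00574, adjusted p = 0.999, edgeR). It was the only 1 of the 14 at the unadjusted threshold here, where 1.97% of all genes were higher. Of the 14, 3 did not overlap in this direction, beside 3.53% of all genes tested.

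Of 33 genes of DNA damage signalling and repair, 5 had a positive log2 fold change after doxorubicin with a median of -0.13, and 13 in the combination with a median of -0.06. Of all genes tested, 48.9% and 56.9% were positive. The mean log2 CPM of the list was 3.77 in both combination replicates 1 and 2, below the 4.10 to 4.36 of the control libraries, and 4.57 in replicate 3, above them. None passed the unadjusted threshold after doxorubicin, and Palb2 and Parp1 were lower at it in the combination, where 1.61% of all genes were. Palb2, the partner of Brca2 in homologous recombination, was at 7.32, 4.73 and 6.51 CPM in control and 3.75, 3.67 and 3.64 CPM in the combination, a log2 fold change of -0.75 (SE 0.28, unadjusted p = 0.0243). Parp1, which binds broken DNA, was at 111, 112 and 111 CPM in control and 82.0, 75.3 and 101 CPM in the combination, a log2 fold change of -0.38 (SE 0.16, unadjusted p = 0.0437).

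Of 20 cell cycle genes that p53 lowers through p21 and the DREAM repressor complex, 2 were positive after doxorubicin and 0 in the combination, with medians of -0.20 and -0.22. These shares stood beside 48.9% and 56.9% of all genes. The lower level in the combination lay in replicates 1 and 2, at a mean log2 CPM of 5.19 and 5.22, while replicate 3 was at 6.20, above the 5.75 to 6.03 of the control libraries. Members of this list vary together with the share of dividing cells, and none passed the unadjusted threshold in either comparison. For both treated groups against control, Mki67, a marker of dividing cells, was lower, with a log2 fold change of -0.67 (SE 0.27, unadjusted p = 0.037, edgeR). Mki67 was at 221, 175 and 183 CPM in control, 176, 95.9 and 75.9 CPM after doxorubicin and 99.3, 115 and 166 CPM in the combination, so that 5 of the 6 treated libraries were below all control libraries but not doxorubicin replicate 1.

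Of 10 genes of the integrated stress response, a translation-based program separate from p53, 7 were positive after doxorubicin with a median of 0.17 and 9 in the combination with a median of 0.50. Of all genes tested, 48.9% and 56.9% were positive. The mean log2 CPM of the list was 3.63 to 4.77 in control and 4.26 to 5.01 in the combination. It was highest in combination replicate 3, and control replicate 2 lay above combination replicates 1 and 2. Atf4, the transcription factor of this program, and Ddit3, which encodes CHOP, were higher at the unadjusted threshold in the combination. The share of all genes higher at it was 2.83%. Atf4 was at 229.6, 269 and 277 CPM in control and 354, 329 and 366 CPM in the combination, with a log2 fold change of 0.44 (SE 0.16, unadjusted p = 0.0254). Ddit3 was at 16.9, 23.3 and 17.5 CPM in control and 34.3, 24.6 and 33.2 CPM in the combination, with 0.67 (SE 0.29, unadjusted p = 0.0458). Unlike Cdkn1a and Btg2, both were above all control libraries in all 3 combination libraries, narrowly so for Ddit3 in replicate 2. Groups that did not overlap in this direction made up 4.39% of all genes tested.

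**Figure D5:**
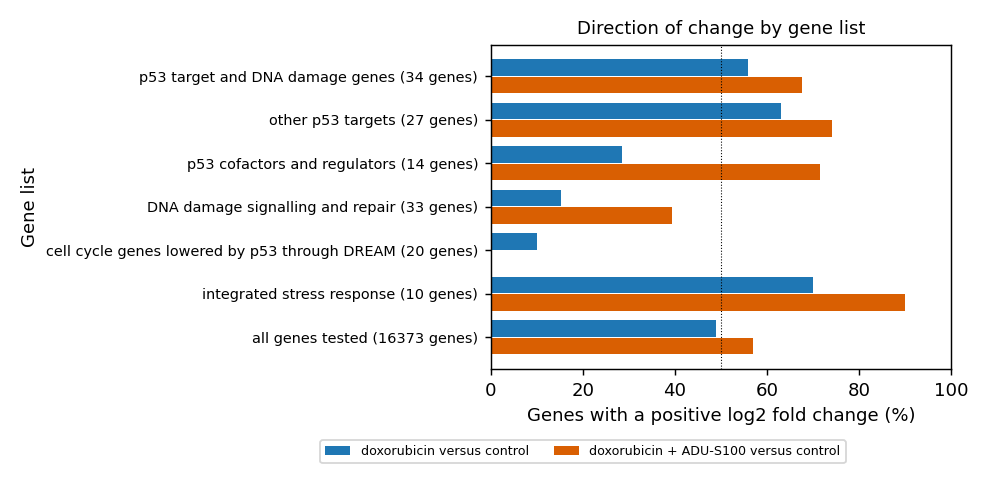
Share of genes with a positive log2 fold change against control in each list, in percent, for doxorubicin (blue) and doxorubicin + ADU-S100 (orange), with a dotted line at 50%. The 34 genes are at 55.9% and 67.6%, beside 48.9% and 56.9% of all genes tested, and the cell cycle list is at 10% and 0%, although combination replicate 3 lies above all control libraries in its mean level.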

How the data were processed

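RNA from magnetically sorted CD45+ cells was sequenced from TruSeq Stranded mRNA libraries with paired reads, in 3 groups of 3 libraries. By the paper's methods, Trimmomatic (0.38) served for read filtering, HISAT2 (2.1.0) for alignment to mm10 and StringTie for counting, and the authors deposited whole-number read counts per gene. The submitters' processing notes give StringTie as 2.1.3b and also name SAMtools (1.9), with no role stated. The strand setting of the counting is not given in the sources used here. RNA was isolated with TRIzol by the paper and with an RNeasy kit per the labels. Cell purity by flow cytometry was checked by the authors, without a fraction given.

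Samples were grouped by their labels. The counts of all 9 libraries were fitted in 1 edgeR (4.0.16) quasi-likelihood model of group means in R (4.3.3), with TMM scaling and filterByExpr, with two-sided p-values and Benjamini-Hochberg adjustment over 16373 genes. The common biological coefficient of variation was 0.457. CPM are counts per 1000000 of the TMM-scaled library size, and a log2 fold change is the difference of group means on that scale with its standard error (SE). Groups did not overlap when every library of one lay above every library of the other. Alternatives were DESeq2 (1.42.0), limma-voom (limma 3.58.1), other scaling, filters and samples, a replicate block and a fibroblast marker covariate, and the omission of the 4 libraries richest in fibroblast markers was added after seeing the data. The fits were tested on simulated data. The 34 genes and the other lists were chosen with earlier results of these data known, and no list was tested as a set. Values in every library were given for 14 chosen members, every member at an unadjusted p under 0.05 in a comparison and the 3 largest changes of each comparison. Of the other lists, up to 4 genes with the lowest unadjusted p under 0.05 were named. Sequences came from RefSeq (GRCm38.p6). Depth was at least 50110494 counts per library, so that 1 CPM stood for about 50 counts or more.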

Additional observations from a re-analysis of the deposited data

How the results depend on the processing

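With 3 libraries a group and adjustment over 16373 genes, small changes of these members could not be resolved, and larger ones were not called either. Gadd45a, at a log2 fold change of 1.07 for the combination against control, had an adjusted p of 0.948 with edgeR. No alternative gave a member an adjusted p under 0.05, so the absence of calls held under each of them. Genes called over the whole table numbered 2, 27, 9 and 3 with DESeq2 for doxorubicin against control, the combination against control, the combination against doxorubicin and both treated groups against control, and 1 for the combination against control with only the groups compared. Without the 4 libraries highest in fibroblast markers, 1 gene was called for the combination against control and 1 against doxorubicin. Leaving out 1 library gave 0 to 1 called genes against control in each comparison.

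Members at an unadjusted p under 0.05, in the same order of comparisons, were 0, 4, 1 and 1. They became 2, 7, 4 and 5 with limma-voom, and 1, 6, 3 and 4 with the fibroblast covariate. They were 2, 6, 4 and 5 without the highest fibroblast library of each group, and 1, 7, 2 and 4 without the 4 libraries highest in these markers, where the counts that involve doxorubicin rest on 1 doxorubicin library. For the combination against control only 1 remained when only the groups compared were fitted. Leaving out 1 library gave 0 to 1, 0 to 9, 0 to 4 and 0 to 5 members. The share of all genes at this threshold also moved, so these counts are not read as a result on the members. For the combination against control, 2.83% of all genes were higher and 1.61% lower in the main fit. Without combination replicate 3 these shares were 6.49% and 4.99%. The labels do not say whether the replicate numbers pair the samples. Of 9 same-number pairs, 3 had a correlation of deviations over 0.1, with all 9 from -0.596 to 0.383. These correlations cannot decide it, since libraries of unlike number also varied together, at 0.66 for control replicate 2 and combination replicate 3. Both of these were rich in fibroblast markers. The replicate block gave 1 member for the combination against control and 0 for both treated groups against control.

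Signs reversed in several members. Without the 4 libraries the doxorubicin group was replicate 2 alone, assumed to vary like the other groups, so its values under that setting rest on 1 library. For doxorubicin against control the log2 fold change of Trp53 became 0.0993 with limma-voom, 0.222 without the highest fibroblast library of each group and 0.155 without the 4 libraries. Under these last 2 settings Gdf15 became -0.489 and -0.388 and Zmat3 -0.0324 and -0.061. Without the 4 libraries Bbc3 became -0.208 and Sesn2 -0.16. Eda2r became 0.183 with limma-voom and 0.772 without the highest library of each group. For the combination Trp53 became -0.12 with limma-voom, -0.129 without the highest library of each group and -0.146 without the 4 libraries, and Zmat3 became 0.00419 with no filter. Eda2r became -0.336 with the replicate block, -0.909 with limma-voom, -0.115 with the covariate, -0.445 without the highest library of each group and -0.463 without the 4 libraries. The cause was not tested.

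Leaving out 1 library reversed a sign in these ranges. For doxorubicin against control the log2 fold change ran from -0.15 to 0.125 for Trp53, -0.0226 to 0.329 for Mdm2, -0.065 to 0.317 for Ccng1, -0.629 to 1.05 for Eda2r, -0.0268 to 0.511 for Sesn2, -0.216 to 0.753 for Gdf15, -0.0371 to 0.2 for Zmat3 and -0.0374 to 1.08 for Phlda3. For the combination against control it ran from -0.26 to 0.522 for Trp53, -0.0878 to 1.17 for Cdkn2a, -0.0759 to 0.359 for Ccng1, -1.74 to 1.82 for Eda2r, -0.156 to 0.389 for Sesn2, -0.13 to 0.137 for Zmat3 and -0.924 to 4.76 for Perp, whose lowest value was without combination replicate 2. The combination values of Cdkn1a, Btg2, Gadd45a and Pidd1 kept their sign in all alternatives, from 0.557 to 1.16, 0.427 to 0.995, 0.722 to 1.38 and -0.867 to -0.541 with 1 library left out.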
